A study of Mus musculus with 3 samples.

Results

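The CXC chemokine cluster around Cxcl2 lies on mouse chromosome 5, and the H3K4me1 enriched regions along it were described in pancreatic islets exposed to cytokines. Its 6 members are Cxcl5, Ppbp, Pf4, Cxcl15, Cxcl1 and Cxcl2, in this order along the chromosome and all on the + strand. From the first base of Cxcl5 to the last base of Cxcl2 they span 146.611 kb (chr5:91188325-91334935, mm9, genes from GENCODE M1). A region was taken when it overlapped a member, lay within 20 kb of any transcription start site (TSS) of a member, or lay between members. The rule uses gene positions alone and found 7 regions among the 65709 of the whole list, whereas 22350 protein-coding genes were annotated on chromosomes 1 to 19 and X.

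Islets are small groups of endocrine cells in the pancreas, and the insulin-secreting β-cells are their main cell type. The islets came from CD1 mice 8 to 12 weeks old, with no genetic change. The study's methods name ICR mice of both sexes and give an age of 8 to 10 weeks. The islets were cultured for 4 days with IFNγ at 1.6, IL-1β at 0.25 and TNFα at 0.16 ng/ml. Islets of at least 10 mice and DNA of 4 immunoprecipitations went into 1 library. H3K4me1 regions of untreated islets were not analysed here, so nothing below separates a region that the cytokines brought about from one that was there before. With 1 library there is no replicate, no difference was tested over samples, and each value below is the one value of that library. The list gives the position of each region without height, score or read count, so the depth is unknown and every value is a presence, a width or a distance. Islets also hold endothelial cells and resident leukocytes, and in such a bulk sample a mark in few cells and a weak mark in many cells cannot be told apart.

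H3K4me1, the monomethylation of lysine 4 of histone H3, marks the nucleosomes of enhancers and the flanks of promoters that are active or poised. CXC chemokines are small secreted proteins that guide leukocytes. Those with the residues ELR before their first cysteines, among them Cxcl1, Cxcl2, Cxcl3, Cxcl5 and the processed product of Ppbp, bind the receptor Cxcr2 and attract neutrophils. Pf4 lacks that motif and is stored with the product of Ppbp in platelet granules. IL-1β and TNFα signal through NF-κB, a transcription factor that binds near the start of many inflammatory genes.

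The 250 bases before the first TSS of 5 genes are shown because the cluster's genes differed in whether a region lay over them and in the short words they held. Cxcl1, Cxcl2 and Cxcl5 had a region over these bases. Cxcl3, an annotated gene inside the cluster but not a member, and Pf4 had none. Capitals mark 2 words, GGAANTTCC for NF-κB and TATAAA for the TATA box, where N stands for any base and both strands were searched. The sequences are those of the + strand, 5′ to 3′, from the NCBIM37 (mm9) reference: Cxcl1 at chr5:91320017-91320266, Cxcl2 at chr5:91332647-91332896, Cxcl5 at chr5:91188075-91188324, Cxcl3 at chr5:91214879-91215128 and Pf4 at chr5:91201211-91201460.
Cxcl1: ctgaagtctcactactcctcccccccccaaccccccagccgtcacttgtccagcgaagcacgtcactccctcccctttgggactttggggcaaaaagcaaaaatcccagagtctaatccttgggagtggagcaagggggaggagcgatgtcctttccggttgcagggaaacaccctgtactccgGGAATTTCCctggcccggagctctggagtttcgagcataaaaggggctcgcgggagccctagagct
Cxcl2: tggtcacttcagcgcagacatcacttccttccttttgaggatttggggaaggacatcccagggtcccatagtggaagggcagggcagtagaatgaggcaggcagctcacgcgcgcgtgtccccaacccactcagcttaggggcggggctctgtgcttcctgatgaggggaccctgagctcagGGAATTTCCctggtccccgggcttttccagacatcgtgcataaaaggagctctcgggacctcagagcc
Cxcl5: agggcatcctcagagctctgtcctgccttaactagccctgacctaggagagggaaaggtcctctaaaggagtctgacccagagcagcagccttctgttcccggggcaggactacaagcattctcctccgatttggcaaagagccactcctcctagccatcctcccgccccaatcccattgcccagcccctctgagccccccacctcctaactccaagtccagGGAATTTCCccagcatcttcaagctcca
Cxcl3: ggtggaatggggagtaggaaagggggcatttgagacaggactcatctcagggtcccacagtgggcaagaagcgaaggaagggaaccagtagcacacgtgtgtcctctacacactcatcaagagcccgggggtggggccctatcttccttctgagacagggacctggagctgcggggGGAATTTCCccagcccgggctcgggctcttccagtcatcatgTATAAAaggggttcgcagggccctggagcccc
Pf4: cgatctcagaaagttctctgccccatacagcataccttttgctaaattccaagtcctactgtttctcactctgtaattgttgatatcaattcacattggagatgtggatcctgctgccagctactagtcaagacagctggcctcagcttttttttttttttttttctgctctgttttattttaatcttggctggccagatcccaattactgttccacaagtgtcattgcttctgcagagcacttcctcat

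The regions of the cluster fell into 2 groups at its ends. Near Cxcl5 lay 3 regions, of 1.0, 1.6 and 0.8 kb. The first, at chr5:91171201-91172200, lay in no annotated gene and ended 16125 bp before the first TSS of Cxcl5. The second, at chr5:91187401-91189000, covered the TSS of Cxcl5, with part of its UTR and coding sequence. The third, at chr5:91194601-91195400, lay in no annotated gene and ended 2144 bp before the TSS of Ppbp. These 3 regions were narrow to middling for the list, of which 65.0%, 43.4% and 74.6% of regions were at least as wide.

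At the other end, 4 regions stood close together before and over Cxcl1 and Cxcl2. Upstream of Cxcl1 were regions of 3.0 kb at chr5:91308001-91311000 and of 2.2 kb at chr5:91313401-91315600, both in no annotated gene, which ended 9267 and 4667 bp before its TSS. A region of 2.4 kb at chr5:91318601-91321000 covered the TSS of Cxcl1, with UTR and coding sequence. A region of 4.4 kb at chr5:91328601-91333000 covered the TSS of Cxcl2. The last was the widest of the 7, and 11% of all regions were at least as wide. Gaps of 2.4, 3.0 and 7.6 kb separated these 4 regions, against a median gap of 10.6 kb over the whole list. Over the 25 kb from the first to the last of them, 12.0 kb or 48.0% was covered, whereas at the Cxcl5 end 3.4 kb of 24.2 kb was covered, or 14%.

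**Figure D1:**
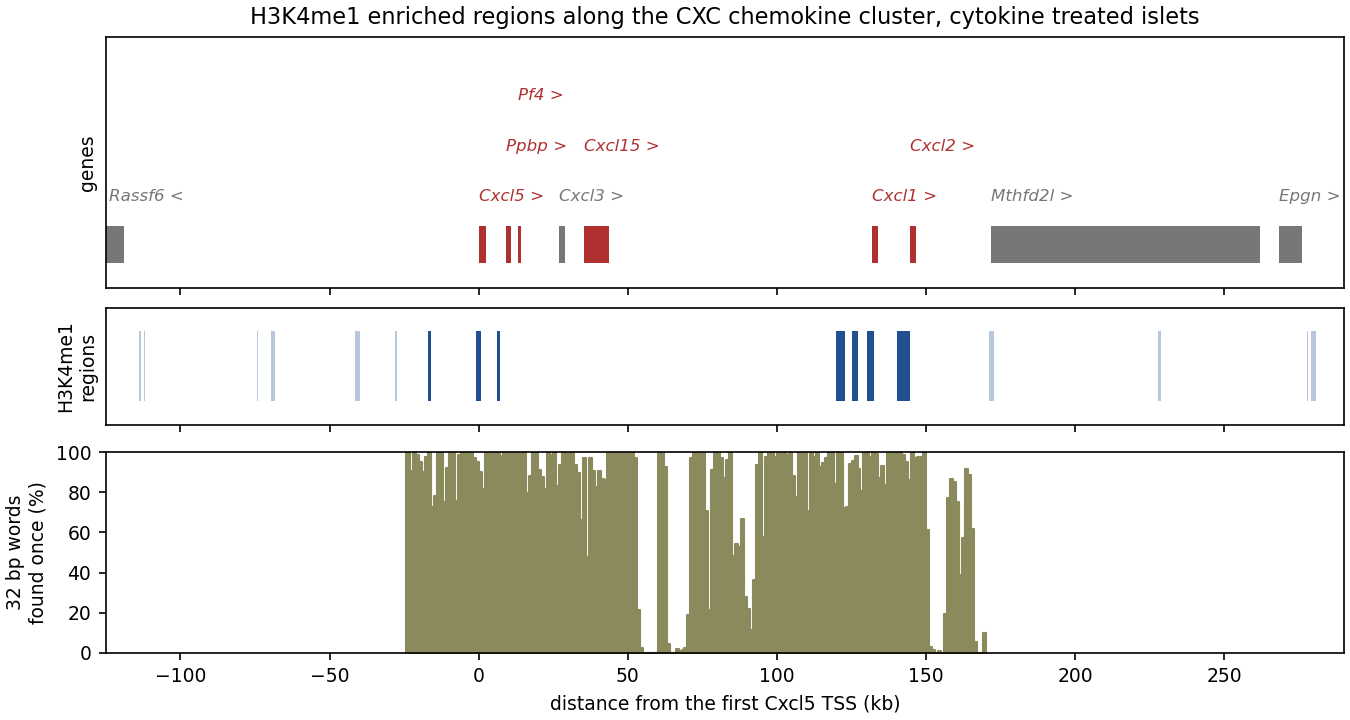
Genes (upper panel, members in red, other protein-coding genes in grey, arrowheads give the strand), H3K4me1 enriched regions (middle panel, the 7 regions of the cluster in dark blue, others in light blue) and the percent of 32 bp words found once in the genome in windows of 1 kb (lower panel, computed for the cluster and its flanks only), against the distance in kb from the first Cxcl5 TSS. The 7 regions sit in a group of 3 at Cxcl5 and a group of 4 at Cxcl1 and Cxcl2, with 112.6 kb between them.

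Between both groups, 112.6 kb held no region (chr5:91195401-91308000), which is 76.8% of the cluster's length. The stretch holds Ppbp, Pf4, Cxcl3 and Cxcl15, so that 3 of the 6 members lie in it. Gaps of this length were not rare: 207 of the 4294 gaps between regions of chromosome 5 (4.82%) and 3802 of the 65630 gaps in all (5.79%) were at least as long. Gaps in which at least 4 protein-coding genes start were fewer, at 387 or 0.590% of all gaps. That base holds gaps of any length, with a median of 10.6 kb, and the share among gaps at least as long was not computed. After the last region of the cluster the next one followed after 26.4 kb, and before the first region of the cluster there was a gap of 10.2 kb.

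Counted over the whole cluster, 68 of 734 bins of 200 bp were covered, or 9.26% (95% exact binomial interval 7.27 to 11.6%, which covers counting error only and treats neighbouring bins as independent). The covered share was 6.06% over chromosome 5 and 5.29% over chromosomes 1 to 19 and X. Regions were spaced at 40.9 per Mb within the cluster, where 6 of the 7 lie, against 28.2 on chromosome 5 and 24.9 over the genome. The 7 regions had a median width of 2200 bp (range 800 to 4400), and the median of all regions was 1200 bp. The higher cover of the cluster thus lay at its 2 ends, with none in its middle.

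A region covered a TSS of 3 of the 6 members, Cxcl1, Cxcl2 and Cxcl5, beside 39.1% of all protein-coding genes. Within 2 kb of a TSS the count was again 3 of 6, beside 62.0% of all genes, and within 20 kb it was 5 of 6, beside 75.6%. With 6 members, these counts stood near the background shares, and 1 member more or fewer would move each share past the background. The median share of sequence covered within 20 kb of a TSS was 7.24% over the members (range 0 to 30.0%) and 7.02% over all genes (quartiles 0.782 and 17.0%). The median distance from the first TSS to the nearest region edge was 1072 bp over the members and 951 bp over all genes. The median distance of the members rests on the region of 0.8 kb before Ppbp: it was 4272 bp with regions of at least 1000 bp and 2320 bp to region midpoints. Their median cover was 11.6% within 10 kb.

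Cxcl1 encodes KC, a chemokine that draws neutrophils through Cxcr2 (ENSMUSG00000029380.10, chr5:91320267-91322141). It had 4 regions within 20 kb of its TSS, more than any other member, and they covered 30.0% of that sequence. Of all protein-coding genes, 9.51% had as large a share. The region over its TSS reached from 1666 bp upstream to 733 bp downstream and covered 39.1% of the short gene. Both regions upstream of Cxcl1 lay closer to it than to any other member, and the region over the Cxcl2 TSS started 8334 bp downstream of the Cxcl1 TSS.

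Cxcl2 encodes MIP-2, another neutrophil chemokine and the closest relative of Cxcl1 among the members in coding sequence (ENSMUSG00000058427.6, chr5:91332897-91334935). It had 3 regions within 20 kb and 22.5% of the sequence covered, a share that 16.8% of protein-coding genes reached. All 3 also lie within 20 kb of Cxcl1, so the 9.0 kb behind the value of Cxcl2 are part of the 12.0 kb behind that of Cxcl1, and both values are not separate observations. Its own region lay almost wholly before the gene: 97.6% of the width was upstream of the first TSS. Among the 6952 protein-coding genes whose first TSS was covered, 1.05% had as large an upstream share, the median share was 35.2% and the quartiles were 19.8 and 55.4%. The region therefore covered only 5.10% of the gene. Edges are known to 200 bp at best, which is more than the downstream length, so the call cannot show whether the mark stopped before or after the TSS.

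Cxcl5 encodes LIX, a neutrophil chemokine known from epithelial cells and platelets (ENSMUSG00000029371.5, chr5:91188325-91190651). It had 3 regions within 20 kb and 8.48% of the sequence covered, a share that 45.7% of genes reached. The region over its TSS reached 924 bp upstream and 675 bp downstream and covered 29.1% of the gene. In all 3 members with a covered TSS the larger part of the region lay upstream, at 57.8% for Cxcl5, 69.4% for Cxcl1 and 97.6% for Cxcl2, above the median of 35.2%. The genes with at least the upstream share of Cxcl5 made up 22.8% of those covered, and for Cxcl1 they made up 14.6%.

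**Figure D2:**
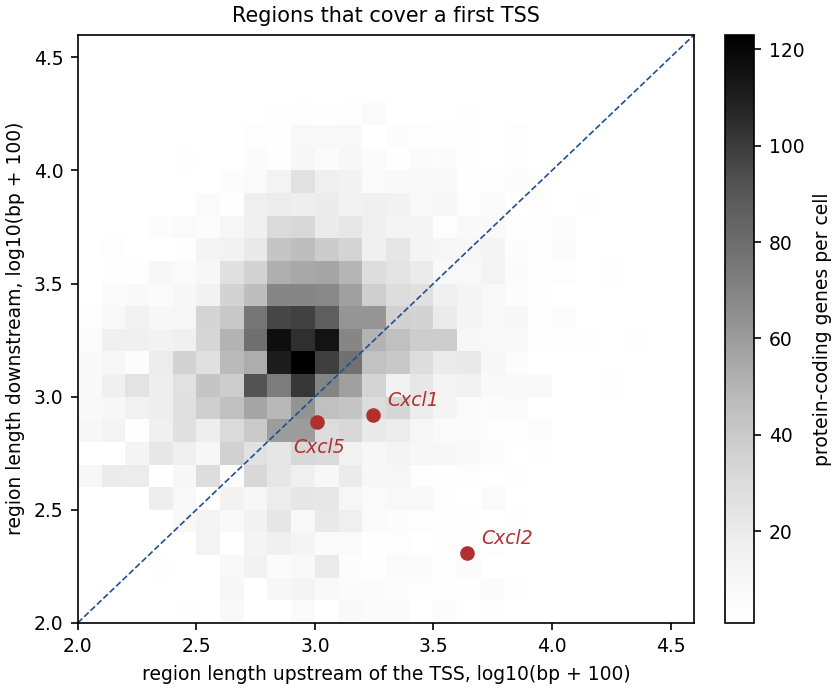
Length of the region upstream (horizontal axis) and downstream (vertical axis) of the first TSS, both as log10 of bp plus 100, for protein-coding genes whose first TSS is covered. Grey cells give the number of genes, red points the 3 members with a covered TSS, and the dashed line equal lengths. All 3 members lie below the line and Cxcl2, with 4296 bp upstream and 103 bp downstream, lies farthest from it.

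Ppbp encodes pro-platelet basic protein, made in megakaryocytes and stored in platelets (ENSMUSG00000029372.6, chr5:91197544-91199086). No region covered it, the nearest ended 2144 bp before its TSS, and 6.00% of the sequence within 20 kb was covered. Pf4 encodes platelet factor 4, which binds heparin (ENSMUSG00000029373.6, chr5:91201461-91202407). It also had no region over it, with the nearest region 6061 bp away and the same 6.00% covered, a share that 54.0% of protein-coding genes reached. These values of Ppbp and Pf4 rest on the same 2 regions, the one over the Cxcl5 TSS and the one that follows it, which also count for Cxcl5. That second region lay nearer to the TSS of Ppbp than to that of Cxcl5, to whose first TSS it was 6276 bp.

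Cxcl15 encodes lungkine, known from lung epithelium (ENSMUSG00000029375.6, chr5:91223560-91232093). It was the only member with no region within 20 kb. The nearest region lay 28160 bp from its TSS, and 77.4% of protein-coding genes had one at least as close. A share of 0% was common, since 24.4% of protein-coding genes had no covered sequence within 20 kb. In order of cover, Cxcl1 and Cxcl2 stood highest, Cxcl5 next, Ppbp and Pf4 level with each other, and Cxcl15 last. This order held for the limit of 20 kb. Within 50 kb Cxcl1 and Cxcl2 had 13.6% each, and within 10 kb Ppbp had 11.3% and Pf4 4.0%. With no replicate, it was not tested whether neighbours in this order differ.

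**Figure D3:**
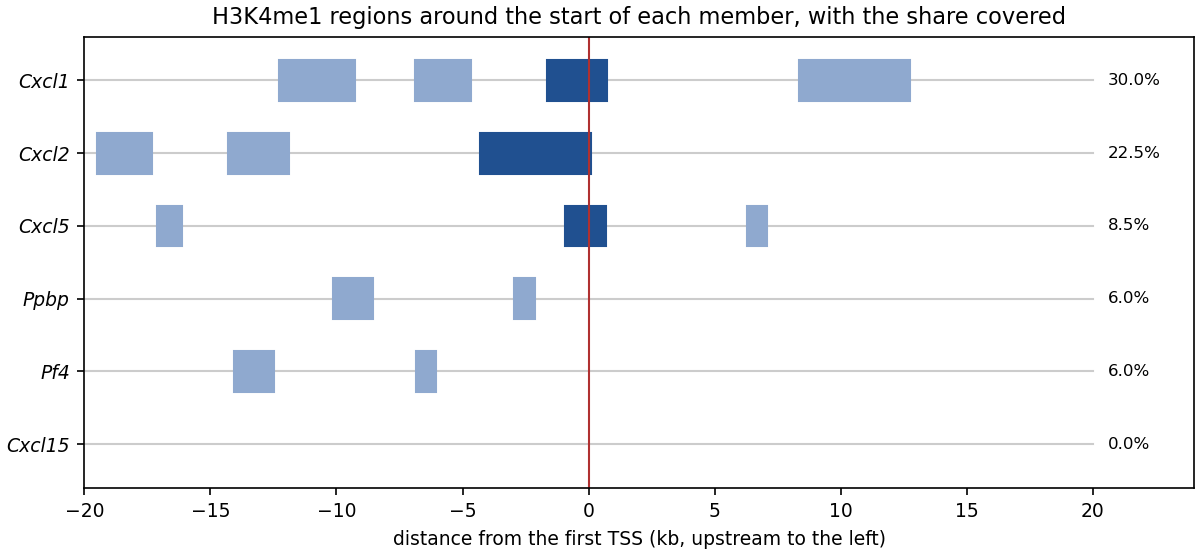
H3K4me1 regions within 20 kb of the first TSS of each member, against the distance in kb with upstream to the left. Dark blue regions cover the TSS, light blue regions do not, and the percent at the right is the covered share of the sequence, from 30.0% at Cxcl1 to 0% at Cxcl15.

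**Figure D4:**
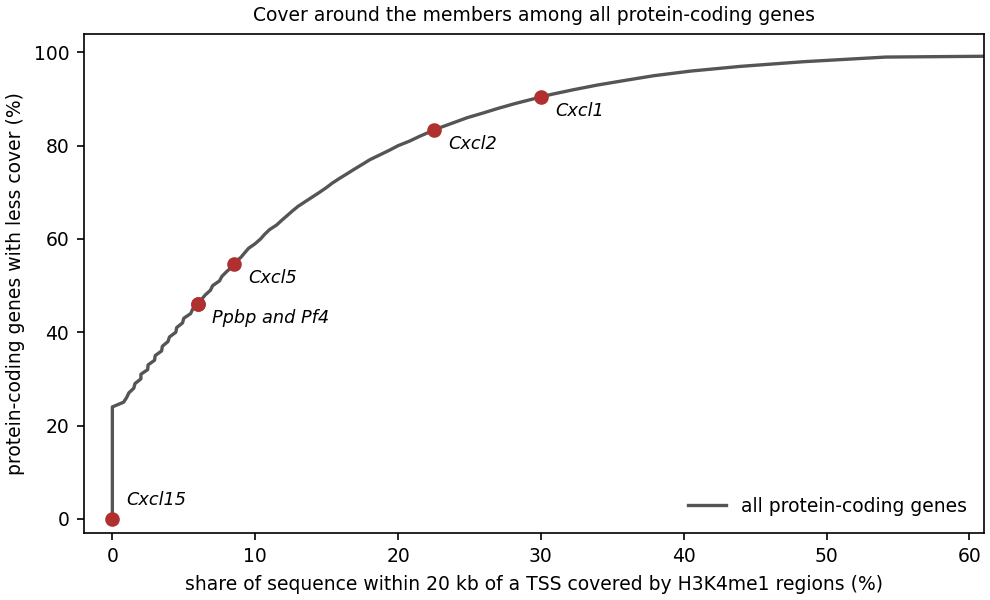
Percent of protein-coding genes with less cover (vertical axis) against the percent of sequence within 20 kb of a TSS covered by H3K4me1 regions (horizontal axis), as a line for all genes and red points for the members. Ppbp, Pf4 and Cxcl5 sit in the middle of all genes, Cxcl2 and Cxcl1 in the upper part, and Cxcl15 at 0%.

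Chemokine genes arose by duplication, and where a sequence occurs more than once a short read cannot be placed with certainty. The share of 32 bp words found once in the genome, on either strand, was therefore computed for the sequence of the cluster. Of all words in the cluster 81.6% were found once, against 84.4% of 73861 words spaced along chromosome 5. In the 7 regions the share was 96.9 to 100%. In the stretch without regions it was 77.7%, and 80 of its 111 windows of 1 kb had at least 80% of words found once, while 15 had under 20%. Near the starts without a region, within 2 kb of the first TSS, the share was 98.5% at Ppbp, 100% at Pf4 and 93.8% at Cxcl3, beside 99.1% at Cxcl1, 94.9% at Cxcl2 and 90.9% at Cxcl5. At Cxcl15 it was 77.1%, and 16.7% of the words there were repeated only inside the cluster. The absence of a region over Ppbp, Pf4 and Cxcl3 thus went with sequence in which nearly all words of this length were found once. At Cxcl15 and in part of the middle stretch, a read of this length could not always be placed with certainty. The read length is not given in the sources used here, and the part of uncertain read placement in the missing regions was not tested.

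Cxcl2 and Cxcl3 are the most alike genes of the cluster. Their coding sequences were 89.8% identical over 303 bp, against 78.7% for Cxcl1 and Cxcl2, 75.6% for Cxcl1 and Cxcl3 and 65.3% for Cxcl1 and Cxcl5. The 250 bases before their first TSS, printed above, were 71.2% identical, against 59.9% for Cxcl1 and Cxcl2. Cxcl2 had a region over its TSS and 22.5% cover within 20 kb, whereas Cxcl3 (ENSMUSG00000029379.9, chr5:91215129-91217112), also a neutrophil chemokine, had 0.680% and its nearest region 19.7 kb away. Of the 32 bp words in the gene bodies, 93.0% were found once for Cxcl2 and 90.2% for Cxcl3, and within 20 kb of the first TSS 77.2 and 93.1%. The part of uncertain read placement in this contrast was not tested.

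The word GGAANTTCC was found in the 250 bases before the first TSS of 3 of the 6 members, Cxcl1, Cxcl2 and Cxcl5, which are the 3 with a region over the TSS. It was also found before Cxcl3, which had none. Of 22345 promoters of protein-coding genes, 232 or 1.04% held the word. In all 4 chemokine genes it read GGAATTTCC, a form held by 72 promoters or 0.322%. Its first base lay 66 bp before the TSS of Cxcl1, 68 bp before that of Cxcl2, 74 bp before that of Cxcl3 and 28 bp before that of Cxcl5. A second word, GGAAGTTCC, lay 598 bp before the TSS of Cxcl1 and 666 bp before that of Cxcl2, also within their regions. Over the genome the word did not go with a covered start: 22.8% of the 232 promoters with it had their first TSS covered, against 31.2% of the 22113 without it. With the word GGAATTTCC, chosen after its occurrence in these promoters was seen, 29.2% were covered.

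In the cluster with 20 kb added on each side, 9 such words occurred in 186.611 kb, and 5 of them lay in regions, which cover 8.25% of that length. A different NF-κB word, GGGNNTTCC, is not a relaxed form of GGAANTTCC, since no run of bases matches both. Of its 28 cases in the same sequence, 3 or 10.7% lay in regions, and of the 73 AP-1 words TGANTCA, 7 or 9.59%. The ISRE word GAAANNGAA lay in regions in 3 of 76 cases (3.95%) and the TATA word in 9 of 237 (3.8%). None of these shares was tested. Of the 5 words GGAANTTCC in regions, the region over Cxcl5 held 1, and those over Cxcl1 and Cxcl2 held 2 each. These 5 are the same words already given before the TSS of these genes, so their counts are not a separate observation. Few regions of the same width held one anywhere in the genome, at 2.73% of 3186 regions for the width of the Cxcl5 region, 4.59% of 1850 for that of Cxcl1 and 7.39% of 541 for that of Cxcl2. The other 4 regions held none. The 4 words outside regions lay in an exon of Cxcl5 (chr5:91190368-91190376, in its UTR), before Cxcl3 (chr5:91215055-91215063), in the coding sequence of Cxcl15 (chr5:91230303-91230311) and in no annotated gene (chr5:91278268-91278276). A word is a run of letters and not a measured binding site.

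In the 250 bases before the TSS, the TATA word was found before Ppbp, 30 and 8 bp from its TSS, and before Cxcl15, 27 bp from its TSS, both without a region. It was also 32 bp before the TSS of Cxcl3. It occurred in 12.3% of promoters. Only the exact word was counted, so cataaaa in the printed bases of Cxcl1 and Cxcl2 was not. A missing word thus does not show that a promoter lacks a TATA box. In these 250 bases the AP-1 word TGANTCA was found before Ppbp only, 204 bp from its TSS, against 6.01% of promoters. No member held the ISRE word GAAANNGAA (7.56% of promoters) or the different NF-κB word GGGNNTTCC (5.25%) in its 250 bases. Words of different kinds did not overlap in these sequences. Before Pf4 none of these words was found.

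**Figure D5:**
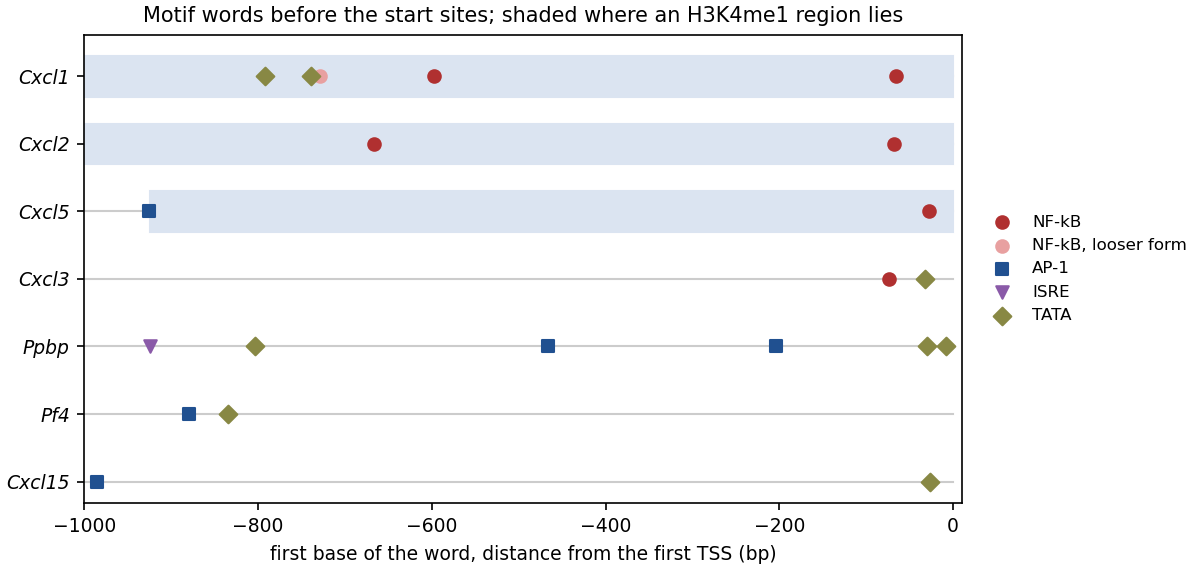
First base of each motif word in the 1000 bp before the first TSS of the 6 members and Cxcl3, in bp from the TSS, with the kind of word given by symbol and colour. The form named looser is GGGNNTTCC, which no GGAANTTCC word matches. Blue bands show where an H3K4me1 region lies, over Cxcl1, Cxcl2 and Cxcl5, and the NF-κB word nearest the TSS stands at 66, 68, 28 and, for Cxcl3 without a band, 74 bp.

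GC content was higher in each promoter with the NF-κB word GGAANTTCC than in those without it. The CpG ratio followed the same split, but only narrowly at Cxcl5. The 250 bases before the TSS had a GC content of 58.8% at Cxcl1, 59.2% at Cxcl2 and 58.0% at Cxcl5, with 60.0% at Cxcl3. They had 47.2% at Ppbp, 46.4% at Cxcl15 and 41.2% at Pf4. The ratio of observed to expected CpG was 0.466 at Cxcl1, 0.412 at Cxcl2, 0.318 at Cxcl3 and 0.158 at Cxcl5. It was 0.149 at Cxcl15, 0.144 at Ppbp and 0.0992 at Pf4, close to that of Cxcl5, against a median of 0.496 over all promoters. Among the 7 regions, the 3 over a TSS had 44.1 to 50.7% GC and CpG ratios of 0.341 to 0.364, whereas the 4 others had 40.2 to 44.9% GC and ratios of 0.0967 to 0.249. The medians of all regions were 45.9% and 0.226.

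Inside the cluster lie also a miRNA gene, AC105995.1, at 0% and a 5S_rRNA gene, which lies just after Cxcl1, 1406 bp from the region over its TSS, and has the same 4 regions and 30.0% cover. Before the cluster, Rassf6, a Ras association domain protein, ends 118.8 kb away and had 2.0% covered, and 5830473C10Rik and Afm, the vitamin E binding protein afamin, had 9.5 and 5.50%. After the cluster, Mthfd2l, a mitochondrial folate enzyme 25.3 kb away, had a region over its TSS and 4.00% covered. Epgn and Ereg, ligands of the epidermal growth factor receptor, had 4.50 and 1.0%. Cover of 22.5 to 30.0% around Cxcl1 and Cxcl2 was therefore above that of each of the 3 nearest protein-coding genes on either side, which were between 1.0 and 9.5%.

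Of 9 CXC ligand genes other than the 6 members, 4 had a region over a TSS, beside 39.1% of all protein-coding genes. All 9 had one within 20 kb, beside 75.6%, and the median cover of the 9 was 9.5%. Cxcl11 among them is annotated as a processed transcript, so it lies outside that background. Cxcl17, a mucosal chemokine, had the most at 21.8% and Cxcl3 the least. The interferon-induced Cxcl9, Cxcl10 and Cxcl11, which attract T cells through Cxcr3, lie 1.42 Mb farther along chromosome 5. By the same rule they had 5 regions, not all of them inside the span of the genes, and 13.1% of that span of 44.2 kb was covered. Cover within 20 kb of a TSS was 6.01% around Cxcl9, 19.5% around Cxcl10 and 21.3% around Cxcl11, so Cxcl1 and Cxcl2 were above the highest of these and the other 4 members below Cxcl10 and Cxcl11. Of 8 CXC receptor genes, 2 had a region over a TSS and 7 one within 20 kb, beside the same 39.1 and 75.6%. The median cover of the 8 was 3.50%. Cxcr5, the receptor of Cxcl13, had the most at 13.5% and Cxcr3 had 0%. Cxcr2, through which the ELR chemokines act, had 2.50% and a nearest region 5763 bp from its TSS, and the related Cxcr1 had 4.50%.

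The labelled tissue was checked against marker genes. Of 10 islet endocrine genes 3 had a region over a TSS, beside 39.1% of all genes, and 7 had one within 2 kb, beside 62.0%. Their median cover was 25.3% and ran from 0% at Gcg, the glucagon gene, to 48.0% at the β-cell factor Pdx1. The median was 1.49% for 7 macrophage genes, 3.60% for 7 neutrophil genes, 11.9% for 6 platelet and megakaryocyte genes and 7.25% for 4 lung epithelium genes. A TSS was covered in 1 of 7 macrophage genes, in 0 of 7 neutrophil genes, in 3 of 6 platelet genes and in 1 of 4 lung genes. Ptprc, Emr1 and Itgam, defining genes of leukocytes and macrophages, and Ly6g, of neutrophils, were at 0%. Of the other macrophage genes 3 had more than the list median, with 31.6% at Cd68, 28% at Cd14, which had a region 190 bp from its TSS, and 12.4% at Fcgr1. The largest cover was 7.86% among neutrophil genes, at Elane, and 23.5% among platelet genes, at Gp1ba. The lung surfactant gene Sftpc had 49.2%, more than any islet gene listed. The ranges of the islet list and the other lists thus overlapped. The part of other cell types in the regions at Cxcl1, Cxcl2 and Cxcl5 was not tested.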

How the data were processed

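The data are H3K4me1 ChIP-seq regions of cytokine treated islets, from 1 pooled library. The authors mapped reads to mm9 with bowtie2 (Bowtie2 2.2.1 in the submitters' processing notes), called enriched regions with ChromHMM and deposited their positions, with no count, score or p-value. All 65709 regions lie on a grid of 200 bp. RNA-seq samples of the series and untreated islets were not analysed here.

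Starts were raised by 1 so that positions count from 1. Genes came from GENCODE M1 and sequences from NCBIM37. Protein-coding genes on chromosomes 1 to 19 and X were the background. Words of 32 bp were counted over the whole genome, and motif words by exact match on both strands, with numpy 2.4.6 and Biopython 1.88 in Python 3.11.15. Tables were joined with pandas 2.3.3 and intervals computed with scipy 1.17.1. Distance classes, covered bases, word counts and the search for motif words were tested on simulated data. Alignments, GC and CpG values, region extents, gaps and intervals were not. Protein sequences were not compared, so coding sequences were aligned in their place.

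The members and gene lists were chosen with earlier results of these data known. Genes named are the members, genes inside the cluster, the 3 nearest protein-coding genes on each side, and those with the largest or smallest cover of each list. Cxcl9, Cxcl10, Cxcl11, Cxcr1, Cxcr2, Cd14, Fcgr1 and the exact form of the NF-κB word were added after values were seen. The result for 1 of the motif words searched is not reported here.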

Additional observations from a re-analysis of the deposited data

How the results depend on the processing

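In all, 10 kinds of alternative setting were tried, those on regions and distances for the members only and not for the background of all genes. The counts of members with a region over a TSS (3) and within 20 kb (5) did not move under the alternatives run on them, and the count within 2 kb was 2 from region midpoints. The number of regions ranged from 6 to 10 and the covered share of the cluster from 8.24 to 9.26%. The median cover around the members was 11.6% with a limit of 10 kb. The median distance to a region was 4272 bp with regions of at least 1000 bp and 2320 bp to region midpoints. The first follows from leaving out the 800 bp region, which moves the nearest one of Ppbp and Pf4, and the second from midpoints lying farther from a TSS than edges. Words found once were 78.2% of the cluster at 24 bp. In 1000 bp before the TSS, 1 member held the NF-κB word GGGNNTTCC (14.7% of all promoters) and 4 the AP-1 word (23.6%). The ISRE word was held by 1 (29.4%) and the TATA word by 4 (46.0%), while the NF-κB word GGAANTTCC stayed at 3 (2.41%). Of 42 values of the 6 members' own cover, 38 stayed within the 95% exact binomial interval of the reported share, taken over 200 bins of 200 bp, and 4 did not. Cover of Cxcl1 and Cxcl2 was 13.6% each with a limit of 50 kb, where that of Cxcl15 was 2.40%, and that of Ppbp was 11.3% with 10 kb. Within that interval, Cxcl5 had 5.6% with 50 kb, Pf4 4.0% with 10 kb, 50 kb or regions of at least 1000 bp, and Ppbp 4.0% with the last. A midpoint cannot cover a TSS in this sense, so that count was not run with midpoints. No paired analysis was possible because the list comes from a single pooled library, and no replicate could be left out. The depth is unknown, so a missing region is not shown to be a missing mark.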
